A study of Macaca mulatta with 20 samples.

Results

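Messenger RNA of 64 nuclear genes of the mitochondrial respiratory chain was followed in corpora lutea of rhesus macaques in which early pregnancy was simulated. The genes were chosen by symbol, as those of the NDUF, UQCR, COX4 to COX8, ATP5 and SDHA to SDHD families that carried a symbol of their own in the platform annotation, out of 14132 named genes on the array. They comprised 30 genes of complex I, 3 of complex II, 6 of complex III, 10 of complex IV and 15 of complex V. Of the 64, 57 encode subunits of the complexes, and 7 encode the complex I assembly factors NDUFAF1, NDUFAF2, NDUFAF3, NDUFAF5, NDUFAF6 and NDUFAF7 and the ATP synthase inhibitor ATP5IF1. Where a gene had several probe sets, the one with the highest mean log2 signal stood for the gene, which left 43 of the 107 probe sets of these genes to be described apart. COX4I1, COX6A1 and SDHD were not analysed here.

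The respiratory chain passes electrons from NADH through complex I, and from succinate through complex II, to ubiquinone, then through complex III to cytochrome c and through complex IV to oxygen. Complexes I, III and IV pump protons across the inner mitochondrial membrane, and complex V, the ATP synthase, uses the proton gradient to make ATP. In steroid-secreting cells such as those of the corpus luteum, the same membrane holds the side-chain cleavage enzyme that turns cholesterol into pregnenolone. The roles given below for single genes are those known of the human proteins.

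Corpora lutea were taken from untreated females on luteal day 10 and from females given human chorionic gonadotropin (hCG; Novarel, recombinant per the labels), the hormone by which the early placenta maintains the gland. The injections began on luteal day 9, were given into muscle 2 times a day and went up in 9 dose steps between 15 and 2880 IU. Treated corpora lutea were collected on luteal days 10, 12, 15 and 18, which is 1, 3, 6 and 9 days into the treatment. There were 5 groups of 4 arrays, and untreated tissue of the later luteal days was not part of the comparison, so that days of hCG, luteal day and dose cannot be told apart after day 10. Whether each gland of a group was from an animal of its own is not in the labels, and the p-values therefore measure only the spread between these samples.

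Signals are the authors' linear intensities, scaled per array. Changes are differences of mean log2(signal + 16) between groups with their standard error, which understate the change of dim genes. Each gene was tested with limma in 1 model of all 20 arrays, and passed where its p, after Benjamini-Hochberg adjustment over all 52707 probe sets, was under 0.05. The number of arrays limits the precision, and the median standard error of a member's change was 0.16. Of 6 luteal markers 3 were measured, with summed signals of 24638 to 32603 on hCG day 18 and 26385 to 33824 in the untreated group. The sum was carried by STAR, which brings cholesterol into mitochondria, at 15298 to 18683 on day 18 and 13123 to 17492 in the untreated group. The other two differed in direction: HSD3B2, described further below, was at 1742 to 2824 on day 18 and 6740 to 9501 in the untreated group, and INHA, an inhibin subunit, at 6968 to 11096 on day 18 and 5523 to 6989 in the untreated group. In whole tissue, fewer cells of a type and less RNA per cell cannot be told apart.

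Before the comparisons, 3 arrays stood apart: replicate 2 of the untreated group, replicate 1 of hCG day 12 and replicate 2 of hCG day 15. They were recognised in 4 of the 6 probe sets that the array names MmuMitochon and that carry no gene symbol in the annotation. MmuMitochon.3.1.S1_s_at had signals of 153 to 270 in the 3 arrays and 8348 to 13903 in the other 17, and MmuMitochon.6.1.S1_s_at had 300 to 1382 in the 3 arrays and 12608 to 20977 in the other 17. MmuMitochon.10.1.S1_s_at was likewise lower, at 709 to 1360 in the 3 arrays and 7384 to 12489 in the others, whereas MmuMitochon.12.1.S1_s_at was higher, at 12582 to 19208 in the 3 arrays and 7575 to 11629 in the others. The other two overlapped, MmuMitochon.4.1.S1_at at 9131 to 16850 in the 3 arrays and 8818 to 17536 in the others, and MmuMitochon.13.1.S1_at at 116 to 228 in the 3 arrays and 218 to 1264 in the others. The mean over the 64 nuclear genes did not set the same arrays apart. The mean log2 signal of the 64 genes was 10.35 in the untreated array, 10.42 in the day 12 array and 10.5 in the day 15 array, each inside the range of the other arrays of its group (10.31 to 10.46, 10.33 to 10.58 and 10.26 to 10.65). Deviations from the group mean over all probe sets tested were also compared. By these, the untreated array matched best with the other arrays of the 3 within their groups. The day 12 array likewise matched best with that of day 15. Beside the main results, values without these 3 arrays are given below.

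**Figure D1:**
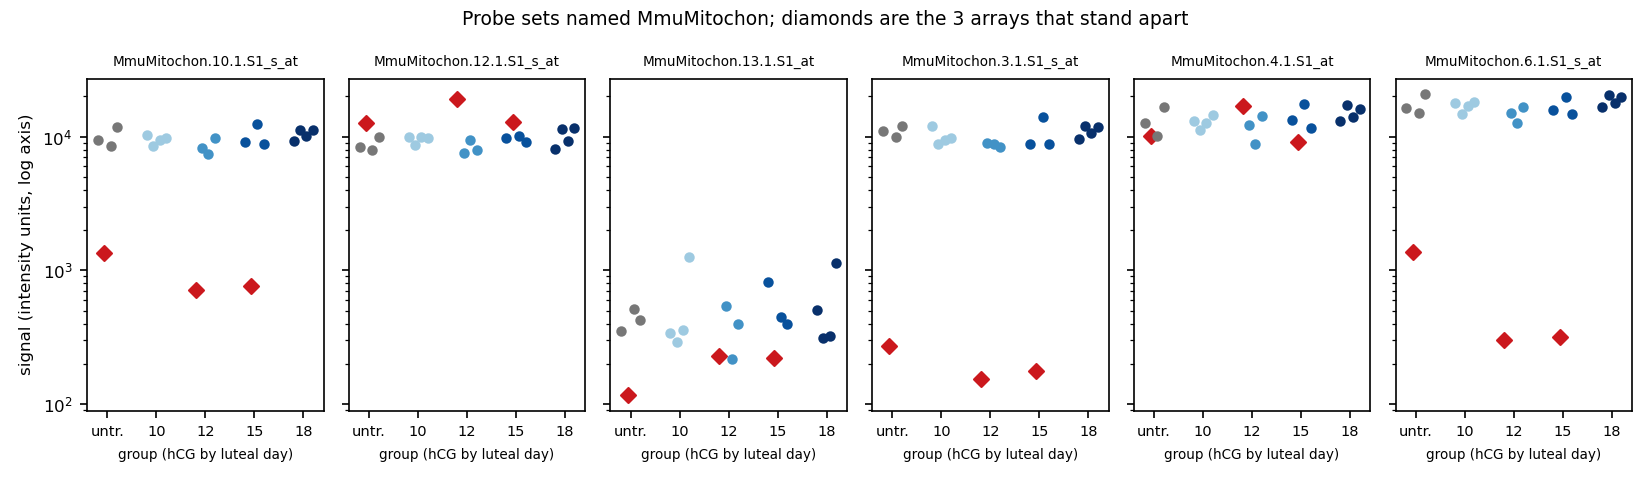
Signal (log axis, intensity units) of the 6 probe sets named MmuMitochon in each of the 20 arrays, by group; red diamonds are the 3 arrays that stand apart. In 3 of the probe sets the diamonds lie far below all other arrays, down to 153 against 8348 or more, and in 1 they lie above them.

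The 64 genes were among the brighter ones of the array. Of them, 60 had a mean signal above that of the median named gene, and 59 had a signal over 100 in every array. The dim members were NDUFV3 and NDUFB10 of complex I, COX6A2 of complex IV, and ATP5PB of complex V, and NDUFA4L2 of complex IV also had a signal under 100 in 1 array. NDUFC1, an accessory subunit, had the same rounded mean log2 signal of 12.16 as NDUFB2, which ranked just above it as the brightest of complex I. NDUFC1 had signals of 4000 to 5636 on hCG day 18 and 3592 to 4857 in the untreated group. In complex V the brightest was ATP5MG, a subunit of the membrane part, at 6522 to 9847 on day 18 and 6233 to 8154 in the untreated group, and in complex IV COX6B1, which faces the intermembrane space, at 6322 to 8260 on day 18 and 6088 to 7381 in the untreated group. These groups overlapped for all 3 genes, and the changes of 0.28 ± 0.15, 0.16 ± 0.13 and 0.07 ± 0.13 did not pass (limma adjusted p = 0.39, 0.64 and 0.89). The change of COX6B1 turned to -0.08 when the arrays were quantile-normalised. No member changed by 1 or more on the log2(signal + 16) scale in any of the 8 comparisons made.

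Over the 4 comparisons with untreated tissue jointly, 0 of the 64 genes passed limma's moderated F test after Benjamini-Hochberg adjustment, where 7.01% of the named genes did. NDUFS4 had the smallest p of the members (adjusted p = 0.1), followed by COX8A (0.11), NDUFA13 (0.12) and UQCRQ (0.14).

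The first question was what 1 day of hCG did at the same luteal day. On hCG day 10, 49 of the 64 genes lay above the untreated mean and 15 below, with a median log2 change of 0.12, against -0.01 over all named genes. None passed (limma, 3 of 64 at an unadjusted p under 0.05), where 1.54% of the named genes passed and 14.6% had an unadjusted p under 0.05. Bright genes in general leaned the same way: the median was 0.06 over the 2554 named genes at or above the members' lower quartile of mean signal. The arrays' medians also differed, by -0.12 between hCG day 10 and the untreated group, and the members' median was 0.06 after quantile normalisation and 0.24 after median-centring. Under the same scalings the median over all named genes was 0.04 and 0.11. The part of scaling in the members' upward lean was not tested. By array, the members' mean log2 signal was 10.388 to 10.625 on hCG day 10, overlapping with 10.307 to 10.462 in the untreated group. It also overlapped on hCG days 12, 15 and 18, at 10.325 to 10.585, 10.26 to 10.651 and 10.2 to 10.546.

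NDUFS4, an accessory subunit of complex I that stabilises its NADH-oxidising arm, was the single member whose groups did not overlap on day 10, where 10.5% of the named genes had groups that did not overlap. Its signals were 2430, 3068, 2615 and 2553 on hCG day 10, against 1739, 2094, 1818 and 2275 in the untreated group. All 4 treated arrays were above all 4 untreated ones, at a change of 0.43 ± 0.15 that did not pass (limma adjusted p = 0.21). COX6A2, the heart and skeletal muscle form of a complex IV subunit, had the largest change at 0.95 ± 0.38, but from dim signals of 20.6, 102.7, 74.9 and 36.9 on hCG day 10, against 11.6, 14.5, 14.7 and 41.7 in the untreated group. The groups overlapped and the change did not pass (limma adjusted p = 0.31). COX7A2, the widely expressed form of a complex IV subunit, went the other way on day 10, at 1448, 1671, 1197 and 878 on hCG day 10, against 1685, 1642, 1517 and 1711 in the untreated group, a change of -0.37 ± 0.16 with overlapping groups (limma adjusted p = 0.35).

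After 3 days of hCG the values were much the same. On hCG day 12, 48 of 64 members lay above the untreated mean (44 without the 3 arrays that stood apart), with a median of 0.11 against -0.01 over all named genes. None passed (limma, 1 of 64 at an unadjusted p under 0.05), where 0.453% of the named genes passed and 11% had an unadjusted p under 0.05. No member had groups that did not overlap, where 6.52% of the named genes did. The gene with the largest change was NDUFA6, an accessory subunit of complex I, at 0.33 ± 0.12 (limma adjusted p = 0.33), with signals of 3429, 2747, 3313 and 3110 on hCG day 12, against 2221, 2599, 2299 and 2935 in the untreated group. The lowest treated array fell between the untreated ones.

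On hCG day 15, after 6 days, 49 of 64 genes lay above the untreated mean and the median was 0.12, against -0.03 over all named genes and 0.06 over the bright ones. None passed (limma, 9 of 64 at an unadjusted p under 0.05), where 1.97% of the named genes passed and 14.6% had an unadjusted p under 0.05. The groups did not overlap for 4 members that were higher and 1 that was lower, together 5 of 64, where 9.04% of the named genes had such groups. The median change was 0.18 in complex I, 0.33 in complex II, 0.08 in complex III, 0.09 in complex IV and 0.12 in complex V. In the same order of complexes, quantile normalisation gave 0.15, 0.28, 0.02, -0.01 and 0.03, with a turned sign in complex IV, and median-centring 0.29, 0.44, 0.19, 0.2 and 0.23. Without the 3 arrays that stood apart complex V was at 0.08. Within complex I, 17 of the 18 accessory subunits lay above the untreated mean on day 15, with a median of 0.24, while the 6 core subunits, which carry the flavin and iron-sulfur centres, had a median of 0.03.

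NDUFA6 had closely matched signals of 3408, 3402, 3297 and 3310 on hCG day 15, against 2221, 2599, 2299 and 2935 in the untreated group. Every day 15 array was above every untreated one, at a change of 0.42 ± 0.12 (limma adjusted p = 0.096), which among the alternatives passed only with a pseudocount of 64 (adjusted p = 0.037). A second, dimmer probe set of NDUFA6 is described below. SDHB, the iron-sulfur subunit of succinate dehydrogenase, had 1459, 1935, 1898 and 2434 on hCG day 15, against 1249, 1225, 1327 and 1441 in the untreated group, at a change of 0.53 ± 0.17 (limma adjusted p = 0.16). NDUFA4, once placed in complex I and now in complex IV, had 3616, 4488, 3814 and 3463 on hCG day 15, against 3000, 2990, 3392 and 3415 in the untreated group. The groups stood just apart, and the change of 0.26 ± 0.14 did not pass (limma adjusted p = 0.5). ATP5PD, a subunit of the peripheral stalk of ATP synthase, was the other higher member with separate groups, at 3860 to 4111 on day 15 and 2782 to 3675 in the untreated group (0.33 ± 0.12, limma adjusted p = 0.26).

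ATP5MC1 was the member that was lower with separate groups on day 15. It is 1 of 3 genes that encode the same mature subunit of the c ring, the rotor of ATP synthase in the membrane. Its signals were 453, 509, 510 and 520.1 on hCG day 15, against 585, 776, 520.6 and 669 in the untreated group, a change of -0.33 ± 0.18 that did not pass (limma adjusted p = 0.5). The highest treated and the lowest untreated array were nearly equal. The other c ring genes, ATP5MC2 and ATP5MC3, had changes of 0.12 ± 0.12 and 0.1 ± 0.11 on day 15 and overlapping groups. A probe set still annotated with ATP5G1, an older symbol of ATP5MC1, had a change of 0.42 ± 0.24. Its gene identifiers were not found in the current gene table, and whether it measures a related copy was not tested.

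On hCG day 18, after 9 days, the members no longer leaned upward. Of the 64 genes, 29 lay above the untreated mean and 35 below (26 and 38 without the 3 arrays that stood apart), with a median of -0.06 against -0.03 over all named genes and 0.02 over the bright ones. One gene, NDUFA13, rose and 0 fell (limma, 15 of 64 at an unadjusted p under 0.05), that is 1 of 64 members where 6.09% of the named genes passed (2.78% passed and were higher) and 21.1% had an unadjusted p under 0.05. The members' groups did not overlap for 7 higher and 6 lower genes, where 15.7% of the named genes had such groups. The complexes differed in where their members lay: the median change was -0.06 in complex I, 0.3 in complex II, -0.31 in complex III, -0.01 in complex IV and -0.04 in complex V. The signs held under quantile normalisation, with medians of 0.27 in complex II and -0.38 in complex III, under median-centring, with 0.35 and -0.26, and without the 3 arrays that stood apart, with 0.26 and -0.29, whereas complexes IV and V turned to 0.04 and 0.01 under median-centring.

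Leukocyte markers moved with the day 18 groups. Of 11 measured macrophage and leukocyte markers, all 11 were above the untreated mean on hCG day 18 and 2 rose, CSF1R and C1QC, with summed signals of 10976 to 20737 on day 18 and 4559 to 12148 in the untreated group. Against hCG day 10, whose sums were 5766 to 7613, 7 of the 11 rose. Of all named genes, 6.09% passed against untreated tissue and 7.97% against hCG day 10. None of the markers was under 16 in all arrays of a group. On hCG day 18 against untreated tissue, 0 markers passed among 9 endothelial, 6 smooth muscle, 6 stromal, 5 lymphocyte and 2 red blood cell genes (limma, 0, 1, 0, 1 and 1 at an unadjusted p under 0.05). Their part in the changes of the respiratory chain genes was not tested.

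**Figure D2:**
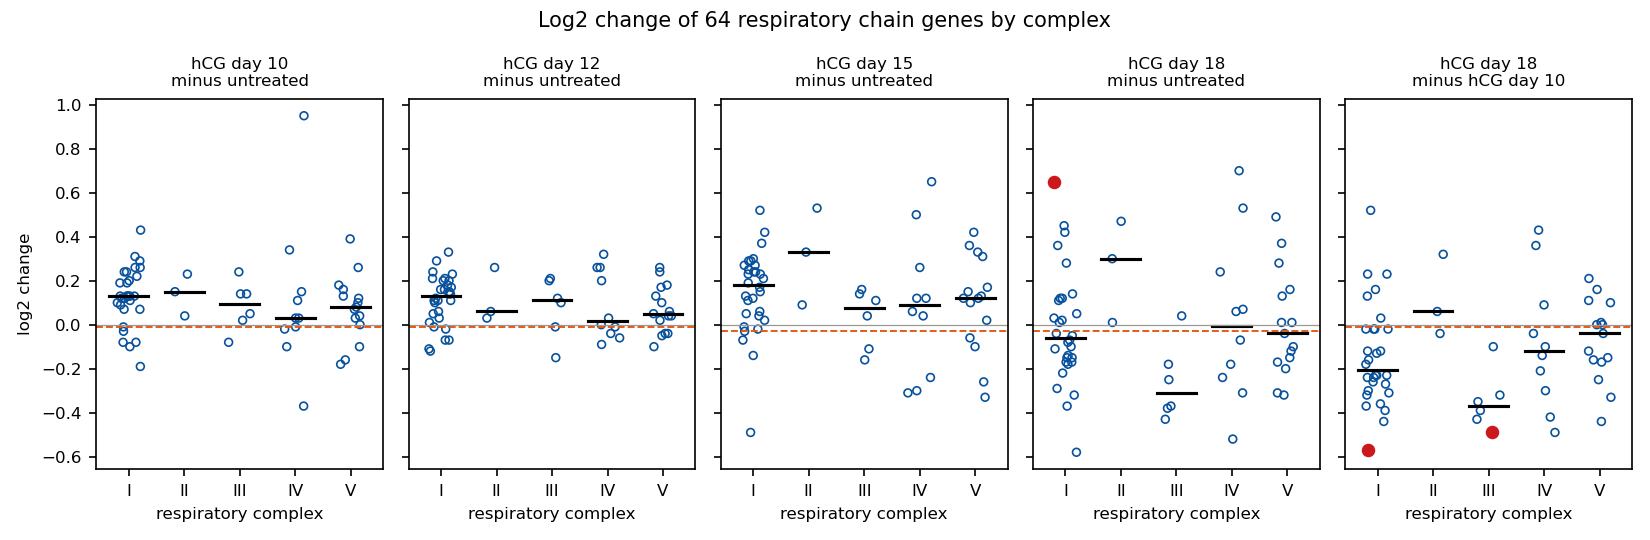
Log2 change (signal + 16) of the 64 genes by complex in the 4 comparisons with untreated tissue and in hCG day 18 against hCG day 10; circles are genes, red dots those that passed, black bars the median of a complex and the dashed line the median of all named genes. NDUFA13 is the red dot at 0.65, and in the last panel NDUFS4 and UQCRQ are at -0.57 and -0.49.

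**Figure D3:**
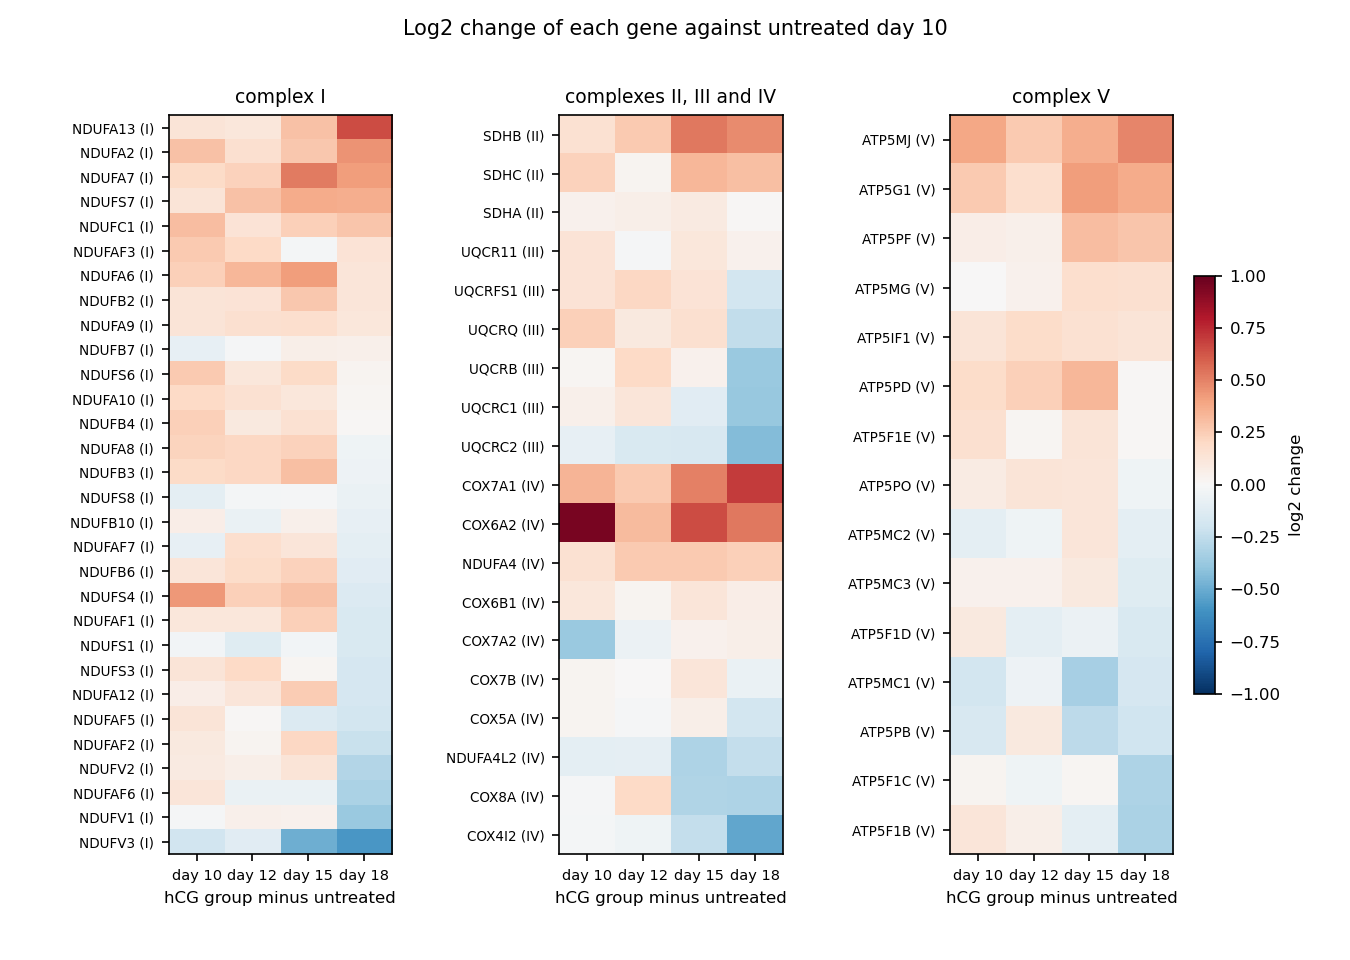
Log2 change of every gene on hCG days 10, 12, 15 and 18 against untreated tissue, with genes of a complex sorted by their change on day 18; red is higher and blue lower in the hCG group, on a scale that ends at -1 and 1. Complex III shows 5 of its 6 genes below 0 on day 18 and complex II none.

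NDUFA13, an accessory subunit of complex I also known as the cell death regulator GRIM-19, had signals of 3623, 4804, 4312 and 3051 on hCG day 18, against 2470, 2658, 2248 and 2560 in the untreated group. All 4 day 18 arrays were above all 4 untreated ones. NDUFA13 rose 1.57-fold, by 0.65 ± 0.17 on the log2 scale (limma adjusted p = 0.035). On hCG days 10, 12 and 15 its means were 2718 ± 270.3, 2702 ± 485 and 3089 ± 627 (SD, n = 4 each), against 2484 ± 175 in the untreated group, and none of these passed. The call did not hold without any 1 of the 4 untreated arrays or without hCG day 18 replicate 1, 2 or 3 (limma adjusted p between 0.055 and 0.12). Without the 3 arrays that stood apart the change was 0.68 with an adjusted p of 0.074.

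Other genes of complex I split in direction on day 18. NDUFA2, an accessory subunit, had 4029, 5267, 4694 and 3855 on hCG day 18, against 2738, 3331, 3131 and 3818 in the untreated group (0.45 ± 0.2, limma adjusted p = 0.27). The core subunit NDUFS7, which lies next to the ubiquinone site, had 1838, 2389, 1978 and 1659 on hCG day 18, against 1576, 1530, 1348 and 1639 in the untreated group (0.36 ± 0.18, limma adjusted p = 0.34). Both stood above the untreated arrays with a narrow gap and did not pass.

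The core subunit NDUFV1, which binds NADH, lay lower on day 18 at 561, 735, 525 and 571, against 824, 774, 744 and 745 in the untreated group (-0.37 ± 0.17, limma adjusted p = 0.28). Its iron-sulfur partner NDUFV2 had 1695, 1991, 1958 and 1442 on hCG day 18, against 2028, 2118, 2340 and 2124 in the untreated group (-0.29 ± 0.13, limma adjusted p = 0.28). All day 18 arrays of both genes were below all untreated ones. By the main probe sets, 5 of the 6 core subunits were below the untreated mean, NDUFS7 being the exception, and their median was -0.16. For NDUFV2 and NDUFS7 the other probe set had the opposite sign, as described further below. Of the 6 assembly factors 5 were below the untreated mean too, with a median of -0.16. NDUFAF2 had groups that did not overlap (-0.22 ± 0.11, limma adjusted p = 0.37). The 18 accessory subunits had a median of 0.03 and held both the highest and the lowest change of complex I, that of NDUFA13 and that of NDUFV3, a dim gene at 41.3 ± 22.2 on hCG day 18 and 64 ± 10.3 in the untreated group (SD, n = 4 each; -0.58 ± 0.29, limma adjusted p = 0.35).

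Complex II oxidises succinate and is also an enzyme of the tricarboxylic acid cycle. SDHB had 1556, 2118, 1976 and 1660 on hCG day 18, against 1249, 1225, 1327 and 1441 in the untreated group. SDHC, a membrane anchor, had 1336, 1336, 1329 and 1216 on hCG day 18, against 1163, 986, 1096 and 996 in the untreated group. For both genes every day 18 array was above every untreated one. The changes of 0.47 ± 0.17 and 0.3 ± 0.16 did not pass (limma adjusted p = 0.15 and 0.4). SDHA, the catalytic flavoprotein subunit, showed no such separation, at 1785, 1796, 1730 and 1738 on hCG day 18, against 2120, 1959, 1711 and 1332 in the untreated group (0.01 ± 0.17, limma adjusted p = 0.99), and its change fell below 0 under quantile normalisation. The second, dim probe set of SDHC was also higher on hCG day 18 than on hCG day 10, at 59.3 ± 9.14 against 35.9 ± 7.15 (SD, n = 4 each; limma adjusted p = 0.046), while the main one had a change of 0.06 ± 0.16 in that comparison.

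Complex III had 5 of its 6 genes below the untreated mean on day 18. UQCRC2, a core protein on the matrix side, had 1888, 2086, 1989 and 2060 on hCG day 18, against 2783, 3065, 2809 and 2235 in the untreated group. Its partner UQCRC1 had 1562, 1672, 1414 and 1431 on hCG day 18, against 2123, 2059, 1981 and 1783 in the untreated group. UQCRB, which contacts cytochrome b, had 499, 629, 508 and 601 on day 18, against 722, 687, 666 and 833 in the untreated group. In all 3 genes the day 18 arrays were below every untreated array, with changes of -0.43 ± 0.18, -0.38 ± 0.15 and -0.37 ± 0.17, and none passed (limma adjusted p = 0.25, 0.19 and 0.3). UQCRFS1, the Rieske iron-sulfur protein, had a change of -0.18 ± 0.14, UQCRQ -0.25 ± 0.13 and UQCR11 0.04 ± 0.17. The mean log2 signal of the 6 genes was 10.82 to 11.06 in the day 18 arrays and 11.03 to 11.25 in the untreated arrays, so that 1 day 18 array, replicate 2, reached the untreated range.

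**Figure D4:**
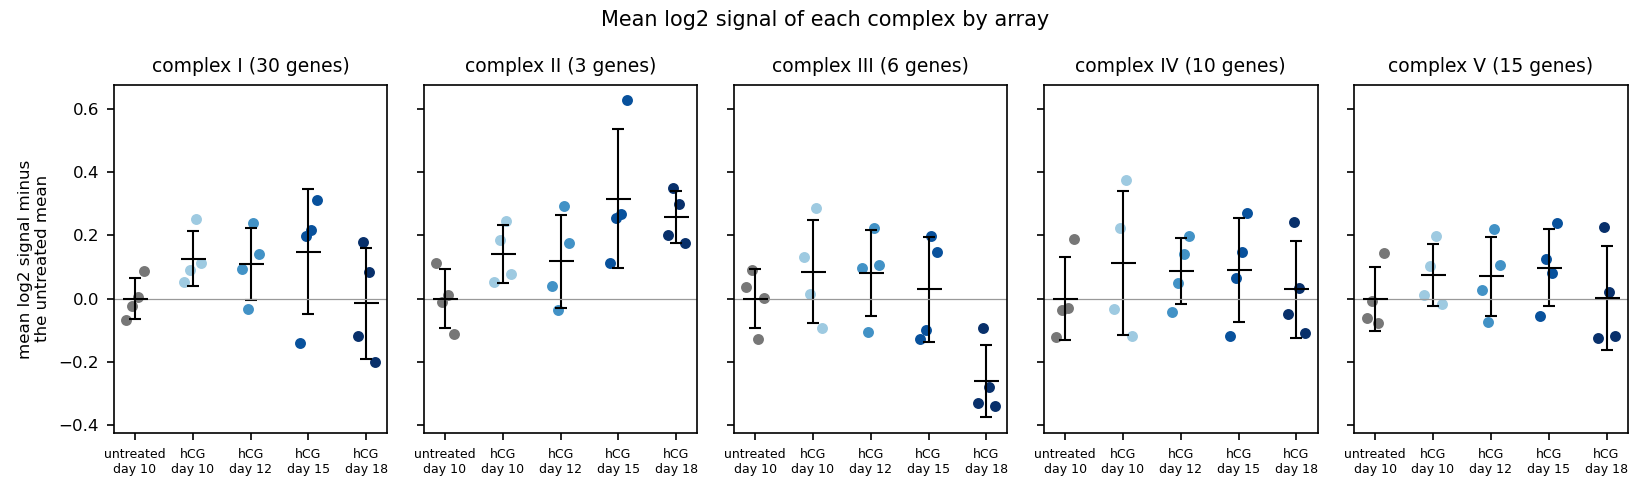
Mean log2 signal of the genes of each complex in every array, minus the mean of the untreated arrays; points are arrays, bars the group mean with its SD (n = 4). Complex II lies above the untreated arrays on day 18 and complex III lies mostly below them, while complexes I, IV and V overlap with the untreated group.

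In complex IV the changes on day 18 ran between -0.52 and 0.7, and the genes at both ends encode tissue-restricted forms. COX7A1, the heart and skeletal muscle form of a nuclear subunit, had 2732, 4586, 3491 and 2852 on hCG day 18, against 2086, 1714, 1808 and 2707 in the untreated group. The groups stood apart by a small margin, with a change of 0.7 ± 0.22 (limma adjusted p = 0.082), which passed when only the brighter 50% of probe sets were tested (adjusted p = 0.048). Markers of striated muscle were dim in all groups: 7 of 9 were measured, with summed signals of 187 to 412 on day 18 and 138 to 231 in the untreated group, and 1 on day 18 and 2 in the untreated group were under 16 in all arrays. Their part in the result was not tested. COX7A2, the widespread counterpart, had a change of 0.06 ± 0.16 on day 18.

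COX4I2, the form of subunit 4 known for its expression in lung and induction by low oxygen, had 538, 624, 281 and 358 on hCG day 18, against 582, 634, 670.2 and 603 in the untreated group. Replicate 2 of day 18 lay inside the untreated range and the other 3 arrays below it, with a change of -0.52 ± 0.21 (limma adjusted p = 0.23). COX8A, a small structural subunit, had 704, 770, 668 and 547 on hCG day 18, against 784, 948, 866 and 732 in the untreated group (-0.31 ± 0.14, limma adjusted p = 0.29), with 1 day 18 array above the lowest untreated one. NDUFA4 had a change of 0.24 ± 0.14 on day 18, and NDUFA4L2, its relative known to be induced by low oxygen, one of -0.24 ± 0.27, and both had overlapping groups.

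In complex V, ATP5F1B, the catalytic beta subunit, had 3748, 4112, 3643 and 3629 on hCG day 18, against 4950, 5109, 4868 and 4055 in the untreated group. One untreated array, replicate 4, was below the highest day 18 array, and the change of -0.32 ± 0.14 did not pass (limma adjusted p = 0.26). With the gene's probe sets averaged it was -0.11 (limma adjusted p = 0.68). ATP5PF, a coupling factor of the peripheral stalk, had 4201, 5204, 4695 and 4342 on day 18, against 3458, 3747, 3803 and 4171 in the untreated group, separate by a narrow gap (0.28 ± 0.13, limma adjusted p = 0.31). The largest change was that of ATP5MJ, a small subunit of the membrane part, at 0.49 ± 0.26, with 1030, 1664, 1433 and 1203 on hCG day 18, against 880.1, 597, 1096 and 1303 in the untreated group (limma adjusted p = 0.41). The c ring genes ATP5MC1, ATP5MC2 and ATP5MC3 had changes of -0.17 ± 0.18, -0.1 ± 0.12 and -0.12 ± 0.11, and the probe set annotated with ATP5G1 one of 0.37 ± 0.24.

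**Figure D5:**
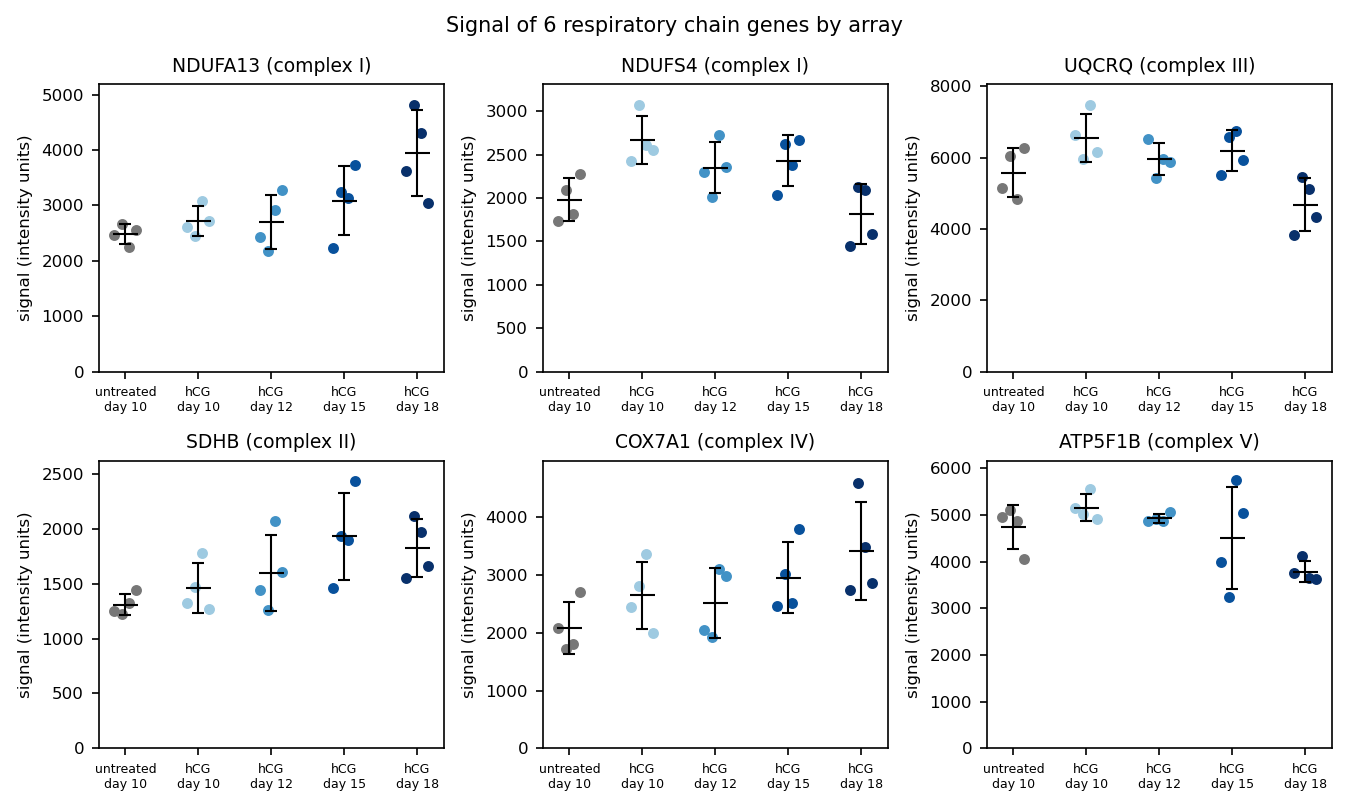
Signal (intensity units, axis from 0) of 6 genes in each array by group; points are arrays, bars the group mean with its SD (n = 4). NDUFA13 lies at 3051 to 4804 on hCG day 18, above the untreated arrays, and NDUFS4 and UQCRQ lie lower on hCG day 18 than on hCG day 10.

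Next, the collection days were compared with each other. hCG day 12 against hCG day 10 gave a median change of -0.01 over the members. Here 0 of 64 passed (limma, 0 of 64 at an unadjusted p under 0.05), where 0.722% of the named genes passed and 10.1% had an unadjusted p under 0.05. hCG day 15 against hCG day 12 gave a median of 0.06 and again 0 of 64 (limma, 1 at an unadjusted p under 0.05), where 0% of the named genes passed and 6.54% had an unadjusted p under 0.05. The 1 member at an unadjusted p under 0.05 was COX8A, with 609, 607, 699 and 783 on hCG day 15, against 883, 1039, 873 and 1034 on hCG day 12. All 4 day 15 arrays were below all 4 day 12 arrays, the single member with separate groups in this step, where 3% of the named genes had them (-0.5 ± 0.14, limma adjusted p = 0.64).

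In the last step the direction was more uniform over the genes, but the arrays overlapped. The members' mean log2 signal was 10.2 to 10.546 in the day 18 arrays and 10.26 to 10.651 in the day 15 arrays. Within their groups, 51 of the 64 were highest in day 18 replicate 2 and 36 were lowest in day 15 replicate 1. The genes were thus not independent of each other. hCG day 18 lay below hCG day 15 in 54 of 64 members (47 without the 3 arrays that stood apart), with a median of -0.12, against 0 over all named genes and -0.04 over the bright ones. The median was -0.14 after quantile normalisation, -0.19 after median-centring and -0.14 without the 3 arrays that stood apart. None of the 64 passed (limma, 14 at an unadjusted p under 0.05), where 0% of the named genes passed and 8.45% had an unadjusted p under 0.05. The groups did not overlap for NDUFAF1, NDUFAF2, NDUFA6 and UQCRQ, all lower on day 18, where 4.32% of the named genes had such groups. All 6 genes of complex III were below their day 15 mean, 5 of 6 without the 3 arrays that stood apart, as were all 6 core subunits of complex I, and NDUFA13 was higher at 0.36 ± 0.17 (limma adjusted p = 0.71).

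Between hCG day 18 and hCG day 10, the longest and the shortest exposure, 47 of 64 members were lower and the median was -0.14, against -0.01 over all named genes. The members' mean log2 signal overlapped between the arrays, at 10.2 to 10.546 on day 18 and 10.388 to 10.625 on day 10. In the limma test 15 of 64 had an unadjusted p under 0.05, where 23.2% of the named genes did. After adjustment NDUFS4 and UQCRQ fell and 0 rose, that is 2 of 64 where 7.97% of the named genes passed and 5.09% passed and were lower. Without hCG day 18 replicate 4 neither passed and NDUFA13 rose, by 0.64 (limma adjusted p = 0.046). The groups did not overlap for 8 members, all lower on day 18, where 15.7% of the named genes had such groups. The median was -0.2 in complex I, 0.06 in complex II, -0.37 in complex III, -0.12 in complex IV and -0.04 in complex V. All 6 genes of complex III and all 6 assembly factors of complex I lay lower on day 18, also under quantile normalisation and median-centring for complex III.

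NDUFS4 had 1447, 2122, 2089 and 1590 on hCG day 18, against 2430, 3068, 2615 and 2553 on hCG day 10. The day 18 arrays were all below the day 10 arrays and overlapped with the untreated ones, which ran from 1739 to 2275. NDUFS4 fell 1.48-fold, by 0.57 ± 0.15 on the log2 scale (limma adjusted p = 0.028). The call did not hold without hCG day 10 replicate 2 or 3 or without hCG day 18 replicate 1 or 4 (limma adjusted p between 0.06 and 0.11).

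UQCRQ, a small membrane subunit of complex III next to cytochrome b, had 3834, 5446, 5111 and 4349 on hCG day 18, against 6621, 5967, 7481 and 6163 on hCG day 10. Every day 18 array was below every day 10 array, while the untreated arrays, at 4847 to 6262, overlapped with both. UQCRQ fell by 0.49 ± 0.13 on the log2 scale (limma adjusted p = 0.032). Its call did not hold without hCG day 10 replicate 1 or 3 or without hCG day 18 replicate 1 or 4 (limma adjusted p between 0.067 and 0.12). Without the 3 arrays that stood apart 4 of the 64 members passed, where 1169 of the 14132 named genes did. The members were NDUFS4, UQCRQ, the assembly factor NDUFAF6 and ATP5F1B (limma adjusted p = 0.044, 0.041, 0.034 and 0.038). None of the 3 arrays belongs to hCG day 18 or hCG day 10, so the changes were the same. Only the shared estimate of the spread and the adjustment differed. In the model of all arrays NDUFAF6 had a change of -0.44 ± 0.13 and ATP5F1B one of -0.44 ± 0.14, with groups that did not overlap (limma adjusted p = 0.059 and 0.074).

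The order of the 5 groups differed between genes. On the log2 scale, the hCG day 15 group had the highest mean for 26 of the 64 members and the hCG day 18 group the lowest for 30, while over all named genes these were 13.5% and 26.5%. The untreated group had the lowest mean for 24 members. Complex II had its lowest mean log2 signal in the untreated group and its highest on day 15 for all 3 genes, although for SDHA day 18 and the untreated group were 0.01 apart, and its mean signal was lower on day 18, at 1762 ± 33.2, than in the untreated group, at 1780 ± 343 (SD, n = 4 each). In complex III day 18 had the lowest mean for 5 of 6 genes. The neighbours in these orders mostly did not differ beyond their spread: the median SD of a member's log2 signal over the 4 arrays of a group was 0.16 both without treatment and on hCG day 10, then 0.2 (day 12), 0.26 (day 15) and 0.21 (day 18).

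The 43 other probe sets of the members gave a check on the chosen ones, and 23 of them had a mean signal under 100. Those with the sign of the main probe set of their gene numbered 22, 23, 23 and 29 of 43 on hCG days 10, 12, 15 and 18 against untreated tissue, and 20 of 43 on hCG day 18 against hCG day 10. Their median change was -0.09 on hCG day 10 and 0.01 on hCG day 18 against untreated tissue, and 0.04 on hCG day 18 against hCG day 10, each of the opposite sign to the members' medians of 0.12, -0.06 and -0.14. A second probe set of ATP5F1E, the epsilon subunit of the central stalk, had 101, 189, 170 and 209 on hCG day 18, against 64.5, 12.9, 17.3 and 72.5 in the untreated group. The day 18 arrays were all above the untreated ones and it rose by 1.8 ± 0.39 (limma adjusted p = 0.012). The main probe set of ATP5F1E, at 3604 to 4967 on day 18 and 3746 to 5350 in the untreated group, had a change of 0.01 ± 0.14.

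A second probe set of NDUFA6 rose between hCG day 10 and the later days, at 1204 ± 254 on hCG day 12 and 1145 ± 278 on hCG day 18, against 549.9 ± 116 on hCG day 10 (SD, n = 4 each). These changes were 1.11 ± 0.24 and 1.03 ± 0.24 (limma adjusted p = 0.044 and 0.015), while the main probe set had -0.13 ± 0.12 on day 18 against day 10. NDUFA6 had 5 probe sets in all. The second, at 870 to 1750 on hCG day 15 and 512 to 857 untreated, stood above the untreated arrays on that day. So did another, at 705 to 1038 and 586 to 667, while the remaining ones overlapped. A second probe set of the assembly factor NDUFAF5 fell by 0.46 ± 0.11 between these days (limma adjusted p = 0.023), in the direction of its main one, at -0.31 ± 0.17. For NDUFV2 and NDUFS7 the other probe set had the opposite sign on day 18 against untreated tissue, at 0.71 and -0.5, against -0.29 and 0.36 in the main one, so that their direction depends on the probe set. UQCRB had 3 other, dimmer probe sets with changes of 0.2, -0.04 and -0.12, against -0.37 in the main one, and that of ATP5F1B had 0.11 against -0.32.

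Related mitochondrial genes outside the symbol rule were set beside the members. Against untreated tissue, 1.54%, 0.453%, 1.97% and 6.09% of all named genes passed on hCG days 10, 12, 15 and 18. The counts of each list below stand beside these shares. Of 12 measured electron carriers and further subunits, 0 passed against untreated tissue on any day (limma, 4, 0, 1 and 1 at an unadjusted p under 0.05 on hCG days 10, 12, 15 and 18), with medians of 0.24, 0.2, 0.13 and -0.06 on these days. Among 28 assembly factors of the chain, 1 rose on day 18: COX19, a copper-handling factor of complex IV assembly, at 1414, 1768, 1232 and 1347 on hCG day 18, against 648, 524, 384 and 782 in the untreated group (1.31 ± 0.3, limma adjusted p = 0.017). The median of that list on day 18 was -0.02. Of 14 measured genes of mitochondrial protein import 0 passed on any day (limma, 1, 1, 2 and 2 at an unadjusted p under 0.05).

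Of the 10 measured regulators of mitochondrial biogenesis, 1 rose on hCG days 15 and 18, where 1.97% and 6.09% of the named genes passed. It was PPARGC1A, a coactivator that drives respiratory chain genes in muscle and brown fat. Its signals were 62.5, 106, 53.4 and 86.2 on hCG day 15 and 69.1, 123, 139 and 56.8 on hCG day 18, against 18.4, 31.9, 19.6 and 30.3 in the untreated group. All treated arrays of both days were above all untreated ones. The gene was dim throughout, and it rose by 1.16 ± 0.27 on day 15 and 1.41 ± 0.27 on day 18 (limma adjusted p = 0.036 and 0.0045), while the members' medians on those days were 0.12 and -0.06.

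Among 12 measured genes of the tricarboxylic acid cycle and pyruvate entry, 1 fell on day 18: DLAT, the acetyltransferase of the pyruvate dehydrogenase complex, at 450, 511, 471 and 458 on hCG day 18, against 688, 836, 683 and 664 in the untreated group (-0.58 ± 0.13, limma adjusted p = 0.015). The list's median on day 18 was -0.29. Of 59 mitochondrial ribosomal protein genes, 1 rose and 3 fell on day 18, where 6.09% of the named genes passed. Their median was -0.14. MRPL48 rose by 0.52 ± 0.12, and MRPL19, MRPS30 and MRPL39 fell by 0.57 ± 0.12, 0.49 ± 0.11 and 0.43 ± 0.11 (limma adjusted p = 0.015, 0.0067, 0.019 and 0.037). MRPL48 alone of the list passed on hCG day 15, where it rose by 0.68 ± 0.12 (limma adjusted p = 0.0057), and MRPL4 alone on hCG day 10, where it rose by 0.72 ± 0.17 (limma adjusted p = 0.045).

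The list of steroid synthesis genes holds the mitochondrial P450 system, cholesterol supply and 3β-hydroxysteroid dehydrogenases. Of it, 7 genes were measured and 2 fell on day 18, where 6.09% of the named genes passed. FDXR, the reductase that feeds electrons to the mitochondrial P450 enzymes, had 704, 762, 1258 and 912 on hCG day 18, against 1684, 1859, 1241 and 1318 in the untreated group (-0.75 ± 0.19, limma adjusted p = 0.026). One day 18 array, replicate 3, was above the lowest untreated one. HSD3B2, which converts pregnenolone to progesterone, had 2372, 2824, 1742 and 2421 on day 18, against 6740, 8048, 8993 and 9501 in the untreated group (-1.83 ± 0.21, limma adjusted p = 4.4e-05). It was also lower on hCG day 15, at 4347 ± 1320 against 8320 ± 1210 in the untreated group (SD, n = 4 each; -0.97 ± 0.21, limma adjusted p = 0.024), and was the single gene of the list to pass on that day.

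On hCG day 18 against hCG day 10, these lists had 2 of 12 electron carriers and further subunits, 2 of 12 tricarboxylic acid cycle genes, 2 of 7 steroid synthesis genes and 7 of 59 mitochondrial ribosomal protein genes that fell, and 1 of 10 biogenesis regulators that rose, where 7.97% of the named genes passed. None of 28 assembly factors and 14 import genes passed (limma, 3 and 4 at an unadjusted p under 0.05).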

How the data were processed

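Affymetrix rhesus arrays of 20 corpora lutea gave 1 signal per probe set. It is a linear intensity, computed by the authors in GCOS per the submitters' processing notes; its version is not given in the sources used here. Each array's 2% trimmed mean was 200.01 or 200.02, so the deposited intensities were scaled per array. Of 52865 probe sets, 158 controls were left out. Of the 52707 tested, 24956 carried 1 gene symbol, 361 several and 27390 none; 3 of those with several symbols included a member's and were left out. Of the 64 symbols, 63 are current in the RefSeq gene table. Genome positions were not used.

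Log2(signal + 16) was fitted with limma 3.58.1 (R 4.3.3; a mean per group, eBayes, 8 contrasts and the moderated F). Figures used matplotlib 3.10.9 in Python 3.11.15. The procedure was run on simulated, independent values with changes larger than those of any member. That run cannot show how well changes of the size reported here are found. The members, the lists and the rules were chosen with earlier results of these data known. Named by rule were members that passed and, in each complex, the brightest gene, the smallest F p and the largest day 18 change. For complex I the brightest was taken as NDUFC1, whose rounded mean equalled that of NDUFB2. Isoform pairs, the c ring, complex II, and up to 2 passing genes per related list were also named by rule. Members with separate groups, the second probe sets and the ribosomal protein genes beyond 2 were named after their values were seen. Replicate numbers of the labels were not used to pair the arrays in the main model. Over 40 same-numbered pairs, deviations correlated at -0.281 to 0.363, and 14 exceeded 0.1. Between the untreated group and hCG day 15 the same number was the closest match for every replicate, at 0.044 to 0.255. Whether the numbers mark a shared animal or day is not in the labels. Alternatives were quantile normalisation, median-centring, pseudocounts of 1 and 64, the upper 50% of probe sets by mean, array weights, a variance trend, a replicate block, averaging of each gene's probe sets, the 8 arrays alone, leaving out each array and, chosen after seeing the data, leaving out the 3 arrays that stood apart.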

Additional observations from a re-analysis of the deposited data

Results flagged for a closer look

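Some groups of 4 arrays held an array whose gap to the nearest other one, as a share of the group's range, was above Dixon's critical value. By chance about 5% of groups would. Of 140 groups of the named members and of the complexes' mean log2 signals 5 did, against 11 of 30 groups of the MmuMitochon probe sets. ATP5G1 was low in hCG day 12 replicate 2 (gap 0.831), ATP5MC1 low in hCG day 15 replicate 1 (0.841), COX4I2 high in hCG day 15 replicate 3 (0.831), COX6A2 high in untreated replicate 4 (0.858) and SDHC low in hCG day 18 replicate 4 (0.939).

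In the MmuMitochon probe sets, the 3 arrays described above gave most of the gaps. These were 0.844 in untreated replicate 2, 0.895 in hCG day 12 replicate 1 and 0.875 in hCG day 15 replicate 2 for MmuMitochon.10.1.S1_s_at. They were 0.945, 0.982 and 0.892 in the same arrays for MmuMitochon.3.1.S1_s_at, and 0.874, 0.931 and 0.927 for MmuMitochon.6.1.S1_s_at. MmuMitochon.12.1.S1_s_at was low in hCG day 10 replicate 2 (0.87) and MmuMitochon.13.1.S1_at high in hCG day 10 replicate 4 (0.864).

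The change against the untreated group differed between hCG day 18 and hCG day 10 for NDUFS4, by -0.57 (limma adjusted p = 0.028), and for UQCRQ, by -0.49 (limma adjusted p = 0.032). NDUFS4 was lower in 4 of 4 day 18 arrays than in any day 10 array, and so was UQCRQ.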

How the results depend on the processing

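The direction of NDUFA13, NDUFS4 and UQCRQ held in all 31 alternatives of each comparison they passed in, with changes of 0.54 to 0.76, -0.65 to -0.47 and -0.57 to -0.4 and limma adjusted p of 0.02 to 0.12, 0.015 to 0.11 and 0.0061 to 0.12. Many alternatives could not alter the change, which rests on the 8 arrays compared, and moved only the p-value. These were leaving out arrays of other groups, the variance trend, the upper 50%, the replicate block and the fit of the 8 arrays. Averaging of probe sets was another, as each of these genes had 1. The counts of calls did not hold. On hCG day 18 against untreated tissue, the count of 1 became 0 with quantile normalisation, median-centring, a pseudocount of 1, a fit of the 8 arrays or without the 3 arrays that stood apart, and 2 with the upper 50% of probe sets or an average of each gene's probe sets. On hCG day 18 against hCG day 10, the count of 2 became 1 with median-centring, 0 with a pseudocount of 1 or a fit of its 8 arrays, and 4 with a pseudocount of 64, the upper 50%, array weights or without the 3 arrays. Of all 14132 named genes, 861 and 1126 passed in these comparisons in the main model. The counts were 863 and 1156 with quantile normalisation, 661 and 987 with median-centring, and 652 and 1169 without the 3 arrays. Among the members, leaving out each array gave 0 to 1 and 0 to 3 calls. Without hCG day 18 replicate 4 the single call of the second comparison was a rise, of NDUFA13. A pseudocount of 64 gave 1 call on hCG day 15 against untreated tissue, and quantile normalisation 1 by the F test. Median-centring moved the median on hCG day 12 against untreated tissue to 0.25. The cause of these differences was not tested, except that fewer arrays or probe sets were fitted where arrays or probe sets were left out. With the replicate block, the pairing that the labels' numbers would give, the counts stayed at 1 and 2 (adjusted p = 0.044 for NDUFA13, 0.023 for NDUFS4 and 0.046 for UQCRQ); in 12 of 40 same-numbered pairs the number was the closest match. NDUFV3, NDUFB10, COX6A2 and ATP5PB were dimmer than the median named gene.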
